A study of Mus musculus with 16 samples.

Results

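Matrix metalloproteinases and their tissue inhibitors were measured in mouse bone marrow stromal cells under osteogenic culture. The cells were wild type or had a conditional knock-out of the histone deacetylase Hdac3 in the osteoblast lineage. The 8 genes were Mmp13, Mmp14, Mmp2, Mmp3, Mmp11, Timp1, Timp2 and Timp3, read by every probe annotated to them: 14 of the 25697 probes on the array, and 8 of the 16593 genes they cover. Mmp13 and Mmp3 had 3 probes each, Timp1 and Timp3 had 2 each and the other genes had 1. The genes were chosen by measured values, since the differences of Mmp13 and Timp1 between the genotypes were known when the list was drawn up. Their genotype differences are therefore given as a description with no test. Differences between sets of arrays with neighbouring numbers, each holding both genotypes equally, are separate from the genotype contrast and were tested. Earlier results of these data were known when the genes were chosen.

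RNA came from cultures kept for 7 days under osteogenic conditions. The 8 wild type arrays were WT5, WT13, WT14, WT21, WT22, WT30, WT42 and WT44, and the 8 Hdac3 CKO arrays were KO7, KO15, KO16, KO23, KO24, KO32, KO46 and KO47. In Hdac3 CKO cells, Cre recombinase driven by Osterix1 deletes Hdac3 in osteoblast lineage cells, and stromal cultures also hold cells in which Osterix is not active. Cells of both genotypes came from a mixed CD1/C57BL6 background, and the labels give neither the number of animals nor whether cells were pooled, so the p-values below measure only the spread between these arrays.

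The numbers in the array names fall into 5 runs of neighbouring numbers, each with as many arrays of both genotypes: WT5 and KO7 form run 1, the arrays numbered 13 to 16 run 2, those numbered 21 to 24 run 3, WT30 and KO32 run 4, and those numbered 42 to 47 run 5. What the numbers stand for is not in the labels. The median intensity was 97.1 to 97.2 on the 16 arrays, and the number of arrays limits the precision. The targeted gene, Hdac3, had a mean log2 intensity of 10.42 ± 0.085 in wild type and 10.25 ± 0.077 in Hdac3 CKO arrays (SD, n = 8 each), 0.890-fold. The genotypes overlapped, with a lowest wild type value of 10.29 and a highest Hdac3 CKO value of 10.38. Hdac3 was not called in limma without a block (adjusted p = 0.932) or with the runs as a block (0.162). The arrays alone thus do not show how far Hdac3 was deleted. Osteoblast markers (Ibsp, Bglap, Alpl, Sp7, Dmp1, Phex, Col1a1 and Spp1) were measured for 7 of 8 genes, 5 of them above the median probe, and all 10 measured macrophage markers were above it too. Run 2 stood apart in its genotype contrast: its Hdac3 CKO arrays exceeded its wild type arrays by 1.37 log2 in the mean of 5 adipocyte markers, by 0.62 in that of 10 macrophage markers and by 1.75 in that of 3 Y-linked genes, whose mean log2 levels were 6.29 in WT13 and 6.36 in WT14 against 7.20 to 8.27 on the other 14 arrays. Results that rest on run 2 are given with and without it.

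Matrix metalloproteinases are zinc-dependent enzymes that cut the proteins of the extracellular matrix. Most are secreted as inactive precursors and gain activity when their propeptide is removed. Mmp13, collagenase 3, cleaves fibrillar collagens and in the skeleton is known from osteoblasts and hypertrophic chondrocytes, Mmp14 sits in the cell membrane and activates the Mmp2 precursor with the help of Timp2, and the Timp proteins bind the active site of the enzymes. The Mmp13 promoter is known for a proximal site of the AP-1 factors (Fos and Jun proteins), through which parathyroid hormone and cytokines act on it.

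Promoter windows of 250 bases before the annotated gene start, from RefSeq on GRCm38.p6, were found for 7 of the 8 genes. Shown here are the windows of Mmp13, the gene that varied most, of Mmp3, a gene of the same cluster on chromosome 9, which was not above the median probe, and of Mmp14 and Timp1, which were bright and hold neither motif searched. Capitals mark the AP-1 heptamer TGAGTCA or its reverse complement TGACTCA (both strands searched) and the TATA box letters TATAAA (gene strand). The Mmp13 window lies at chr9:7272264-7272513 (plus strand), the Mmp3 window at chr9:7445572-7445821 (plus strand), the Mmp14 window at chr14:54431348-54431597 (plus strand) and the Timp1 window at chrX:20869916-20870165 (plus strand).
Mmp13: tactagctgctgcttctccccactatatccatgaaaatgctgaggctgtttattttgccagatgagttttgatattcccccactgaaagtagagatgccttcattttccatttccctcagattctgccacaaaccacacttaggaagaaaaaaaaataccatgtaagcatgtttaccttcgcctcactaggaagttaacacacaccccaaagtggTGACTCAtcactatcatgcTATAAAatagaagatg
Mmp3: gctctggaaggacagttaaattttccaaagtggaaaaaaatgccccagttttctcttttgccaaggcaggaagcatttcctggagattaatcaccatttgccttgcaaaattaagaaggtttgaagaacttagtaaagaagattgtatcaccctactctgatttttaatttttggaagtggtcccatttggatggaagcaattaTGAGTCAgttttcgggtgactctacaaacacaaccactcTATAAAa
Mmp14: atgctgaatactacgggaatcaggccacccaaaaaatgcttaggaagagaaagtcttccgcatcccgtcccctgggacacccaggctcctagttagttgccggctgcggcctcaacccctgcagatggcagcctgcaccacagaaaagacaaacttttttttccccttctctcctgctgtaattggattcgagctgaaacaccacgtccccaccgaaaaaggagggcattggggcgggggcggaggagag
Timp1: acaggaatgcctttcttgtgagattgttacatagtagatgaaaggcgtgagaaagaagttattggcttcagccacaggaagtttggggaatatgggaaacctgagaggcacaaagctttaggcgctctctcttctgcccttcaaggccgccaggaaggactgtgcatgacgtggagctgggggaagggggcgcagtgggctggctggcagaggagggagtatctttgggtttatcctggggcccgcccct

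In the Mmp13 window the heptamer began 35 bases before the gene start, on the minus strand, and TATAAA 16 bases before it. In the Mmp3 window they began 46 and 7 bases before it, the heptamer on the plus strand. Of the 7 windows, 2 held the heptamer and 2 held TATAAA, those of Mmp13 and Mmp3 in both cases. Among all 32851 windows of the same length, 4.46% held the heptamer, 7.59% held TATAAA and 0.481% held both. The Mmp13 and Mmp3 windows were 40.4% and 37.6% G and C, against 55.2% for Mmp14 and 54.4% for Timp1. These letters describe the windows alone, and no binding was measured.

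Mmp13 was the most variable gene of the group, in both genotypes. By its brightest and second brightest probes, Mmp13 had a lower mean in Hdac3 CKO than in wild type arrays in every run. Its brightest probe (ILMN_2737685) ranged from an intensity of 1651 on KO46 to 20317 on WT13. On the log2 scale it read 13.75 on WT5 against 13.27 on KO7 in run 1. In run 2 it read 14.31 and 14.18 on WT13 and WT14 against 13.70 and 13.73 on KO15 and KO16. The wild type arrays of these runs were thus the higher ones. In run 3 it read 12.19 and 12.25 on WT21 and WT22 against 11.93 and 12.28 on KO23 and KO24, and in run 4 12.50 on WT30 against 12.38 on KO32. In run 5 it read 11.48 and 11.96 on WT42 and WT44 against 10.69 and 10.77 on KO46 and KO47. Runs 1 and 4 hold 1 array of each genotype, which cannot overlap. Of runs 2, 3 and 5 the genotypes overlapped within run 3 alone, and over all 16 arrays they overlapped widely.

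**Figure D1:**
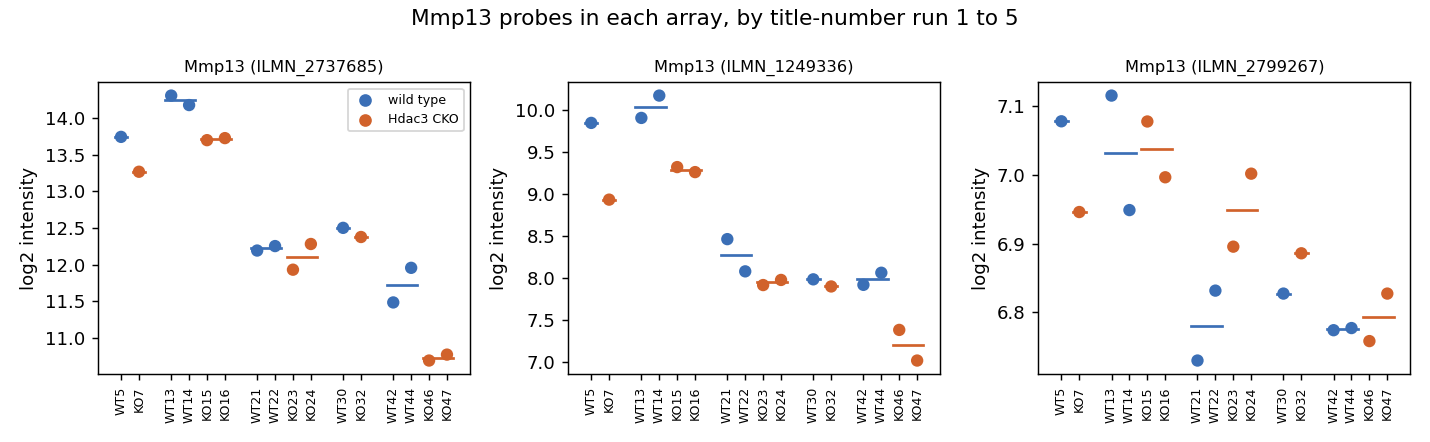
Log2 intensity (y axis) of the 3 Mmp13 probes on each of the 16 arrays (x axis), ordered by run 1 to 5. Points are arrays, coloured by genotype, and short lines are the means of a genotype within a run. With probe ILMN_2737685, runs 1 and 2 lie between 13.27 and 14.31 and run 5 between 10.69 and 11.96.

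The second Mmp13 probe, ILMN_1249336, gave the same order of genotypes in every run. It read 9.85 on WT5 against 8.93 on KO7, and 9.91 and 10.17 on WT13 and WT14 against 9.32 and 9.26 on KO15 and KO16. In run 3 it read 8.46 and 8.08 in wild type against 7.91 and 7.97 in Hdac3 CKO arrays, in run 4 7.98 against 7.90, and in run 5 7.92 and 8.06 against 7.38 and 7.01. Within all 5 runs the wild type arrays were above the Hdac3 CKO arrays, but runs 1 and 4 hold only 1 array of each genotype. Over the 16 arrays the genotypes overlapped. The third probe, ILMN_2799267, was dim, from 6.73 to 7.12, with run differences going from -0.13 in run 1 to 0.17 in run 3. Its mean was higher in Hdac3 CKO arrays in 4 of 5 runs, the opposite direction to the other probes. Across the 16 arrays the first and second probes moved together (Pearson r = 0.95), and each with the third less closely (0.80 and 0.73); the 3 probes share arrays and labelled RNA, so no test was made.

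The difference, Hdac3 CKO minus wild type with the runs as a block in limma, was -0.48 log2 for the brightest Mmp13 probe (SE 0.11, 95% interval -0.71 to -0.26) and -0.59 for the second (SE 0.096, -0.80 to -0.39), 0.715-fold and 0.663-fold. Without the block the same differences had standard errors of 0.52 and 0.42. For the third probe the difference was 0.038 (SE 0.047). Run by run, the brightest probe differed by -0.48, -0.53, -0.12, -0.13 and -0.99 in runs 1 to 5, and the second by -0.92, -0.75, -0.33, -0.085 and -0.79. Both probes were thus lower in 5 of 5 runs, with the smallest differences in runs 3 and 4. The share of all probes that were lower in every run was not taken. As Mmp13 was chosen by this contrast, the count of runs only describes it. Without run 2 the differences were -0.47 and -0.54.

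Levels of cell type markers were set beside these values. The summed intensity of the 7 osteoblast markers ran from 8440 to 38808 in wild type and from 7983 to 26297 in Hdac3 CKO arrays, and their mean log2 level differed by -0.40, -0.55, -0.094, 0.048 and -0.028 in runs 1 to 5. The sum of the 10 macrophage markers ran from 27842 to 50819 and from 36801 to 50309, with differences of 0.20, 0.62, 0.13, -0.0090 and 0.23. Chondrocyte markers (Col10a1, Ihh, Sox9, Acan, Col2a1 and Col9a1) summed to 747 to 2707 in wild type and 789 to 2774 in Hdac3 CKO arrays. Their mean log2 level differed by -0.17, -0.078, -0.13, 0.036 and 0.021 in runs 1 to 5. Of these, 3 of 6 were above the median probe: Col2a1 (mean log2 9.67 in wild type and 9.78 in Hdac3 CKO arrays), Sox9 and Col9a1. Col10a1 (6.46 and 6.41) and Ihh (6.36 and 6.38), the markers of hypertrophy, were not above it, so the sum does not measure hypertrophic chondrocytes. None of the osteoblast, macrophage and chondrocyte markers passed for genotype in either limma fit. The sum of the 5 adipocyte markers ran from 428 to 3192 in wild type and from 571 to 9137 in Hdac3 CKO arrays, and their mean log2 level was higher in Hdac3 CKO arrays in every run, by 0.065, 1.37, 0.26, 0.52 and 0.52. Of these, Adipoq was called in the block fit (limma adjusted p = 0.00105), which called 0.218% of all probes. With the macrophage level as a covariate beside the runs, the Mmp13 differences were -0.32 (SE 0.16) and -0.44 (SE 0.14), and with the osteoblast level -0.52 (SE 0.14) and -0.44 (SE 0.11). In RNA of whole cultures, fewer cells that make Mmp13 and less Mmp13 RNA per cell cannot be told apart.

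Of the other metalloproteinases, Mmp14 was bright on every array and was not ordered by genotype. Its probe (ILMN_1240726) had a lowest, median and highest log2 intensity of 12.85, 13.59 and 14.46 in wild type and 13.08, 13.66 and 13.88 in Hdac3 CKO arrays. The block difference was -0.043 (SE 0.12, 95% interval -0.30 to 0.22), with run differences of 0.27, -0.45, 0.11, 0.26 and -0.087. Mmp14 was thus higher in 3 runs and lower in 2, and with the macrophage level as a covariate the difference was 0.31 (SE 0.15).

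Mmp2, gelatinase A, which degrades denatured collagen and basement membrane, was lower in Hdac3 CKO arrays chiefly in runs 1 and 2. It read 11.84 on WT5 against 11.47 on KO7, and 12.48 on both WT13 and WT14 against 11.93 on KO15 and 11.71 on KO16. In the other runs its values lay between 10.92 and 11.67 and the genotypes lay closer: the differences were -0.14, 0.20 and -0.033 in runs 3 to 5. Over all runs the difference was -0.23 (SE 0.091, 95% interval -0.42 to -0.036, 0.853-fold). Without run 2 it was -0.087, and with the macrophage level as a covariate it was 0.10.

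Mmp11, stromelysin 3, and Mmp3, stromelysin 1, were the dim metalloproteinases. Mmp11 (ILMN_2696711) had a lowest, median and highest log2 intensity of 6.72, 7.22 and 7.39 in wild type and 6.97, 7.06 and 7.58 in Hdac3 CKO arrays, and its run differences went from -0.16 in run 1 and -0.10 in run 2 to 0.18, 0.30 and 0.28 in runs 3 to 5. The 3 Mmp3 probes lay between 5.94 and 6.53 on all arrays, below the median probe's mean of 6.60, and correlated with each other at r = 0.0062 to 0.23 across the 16 arrays. With the runs as a block their differences were 0.0055 (ILMN_2704576, SE 0.043), 0.048 (ILMN_2753809, SE 0.045) and 0.13 (ILMN_2899041, SE 0.052, 95% interval 0.018 to 0.24). At such intensities, and with probes that did not move together, a difference of Mmp3 was not reliably measurable here.

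**Figure D2:**
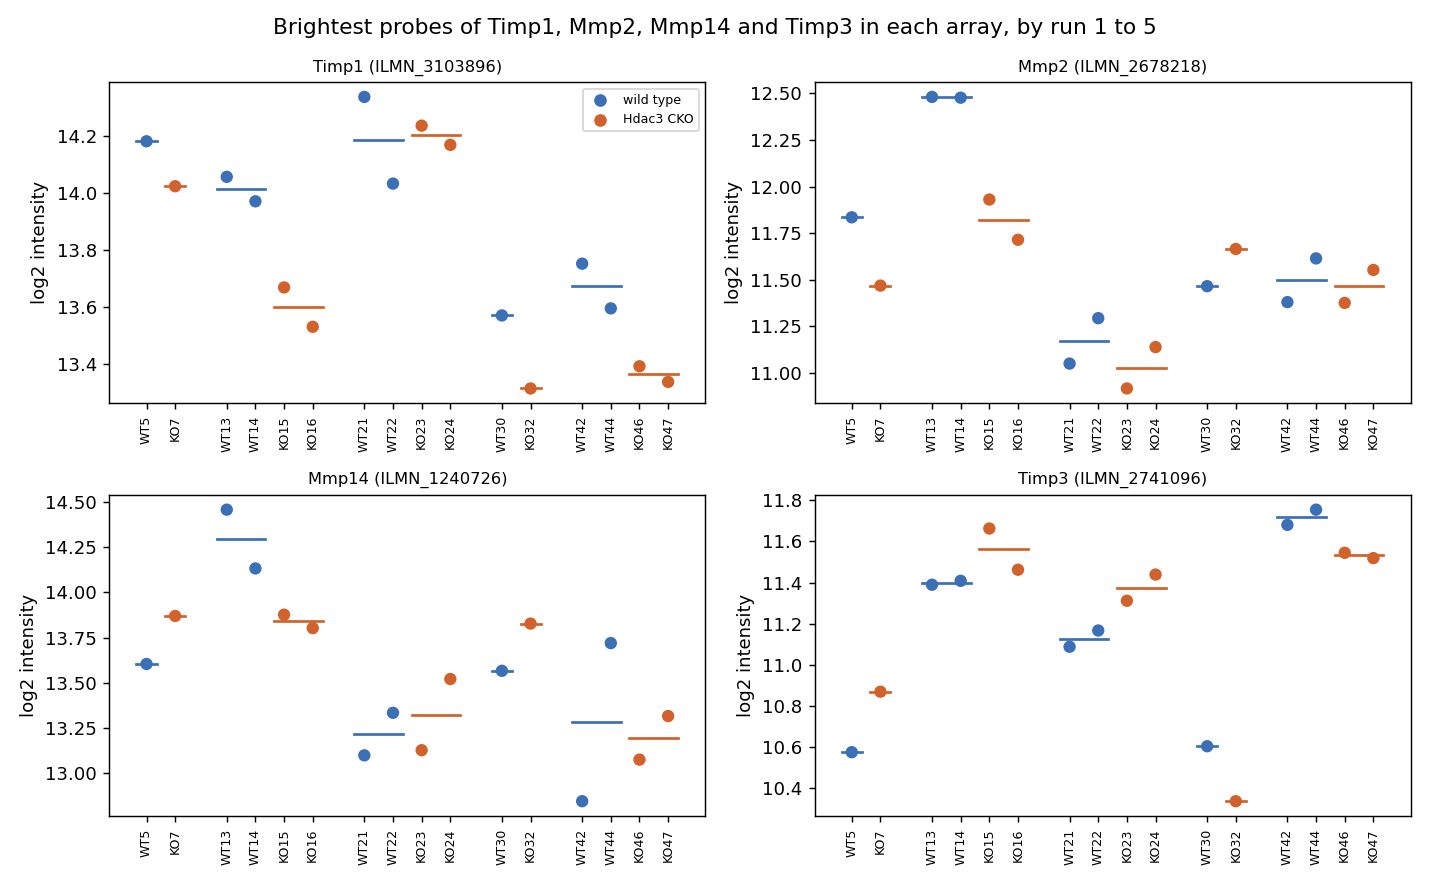
Log2 intensity (y axis) of the brightest probes of Timp1, Mmp2, Mmp14 and Timp3 on each of the 16 arrays (x axis), ordered by run 1 to 5. Points are arrays, coloured by genotype, and short lines are the means of a genotype within a run. Timp1 is lower in Hdac3 CKO arrays in runs 1, 2, 4 and 5, and Timp3 lies lowest in runs 1 and 4, at 10.34 to 10.87.

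Among the inhibitors, Timp1, a secreted inhibitor of most of these enzymes, was lower in Hdac3 CKO arrays in most runs, and both of its probes read alike. The brighter one (ILMN_3103896) read 14.18 on WT5 against 14.02 on KO7, and 14.06 and 13.97 on WT13 and WT14 against 13.67 and 13.53 on KO15 and KO16. In run 3 it read 14.34 and 14.03 in wild type against 14.24 and 14.17 in Hdac3 CKO arrays, in run 4 13.57 against 13.32, and in run 5 13.75 and 13.60 against 13.39 and 13.34. The genotypes were separate in runs 2 and 5 and overlapped in run 3 and over all arrays. In runs 1 and 4, with 1 array of each genotype, the wild type array was the higher one. The block difference was -0.23 (SE 0.063, 95% interval -0.36 to -0.093, 0.854-fold), and for the other probe (ILMN_2769918) -0.25 (SE 0.065, -0.39 to -0.11, 0.841-fold). Across the 16 arrays both probes correlated at r = 0.97. Without run 2 their differences were -0.17 and -0.24, and with the macrophage level as a covariate -0.11 and -0.26.

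Timp2, which also takes part in the activation of Mmp2 by Mmp14, differed little by genotype. Timp3, which binds to the matrix and also inhibits ADAM and ADAMTS proteinases, had run differences of both signs. Timp2 (ILMN_2712867) had a lowest, median and highest log2 intensity of 11.82, 12.08 and 12.44 in wild type and 11.82, 12.12 and 12.50 in Hdac3 CKO arrays, with a block difference of 0.051 (SE 0.047, 95% interval -0.050 to 0.15). Its run differences were -0.060, 0.054, 0.032, 0.19 and 0.054, higher in Hdac3 CKO arrays in 4 of 5 runs. The brighter Timp3 probe (ILMN_2741096) had 10.58, 11.28 and 11.75 in wild type and 10.34, 11.45 and 11.66 in Hdac3 CKO arrays. It was higher in Hdac3 CKO arrays in runs 1 to 3, by 0.29, 0.16 and 0.25, and lower in runs 4 and 5, by -0.27 and -0.19. In runs 2, 3 and 5 the genotypes did not overlap for this probe, with Hdac3 CKO arrays higher in runs 2 and 3 and lower in run 5. Runs 1 and 4 hold 1 array of each genotype, which cannot overlap. The share of all probes with such separation was not taken. The dimmer Timp3 probe (ILMN_2614759) followed it across arrays (r = 0.90) but differed by 0.20 in run 5, the opposite direction. That probe was higher in Hdac3 CKO arrays in 4 of 5 runs.

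**Figure D3:**
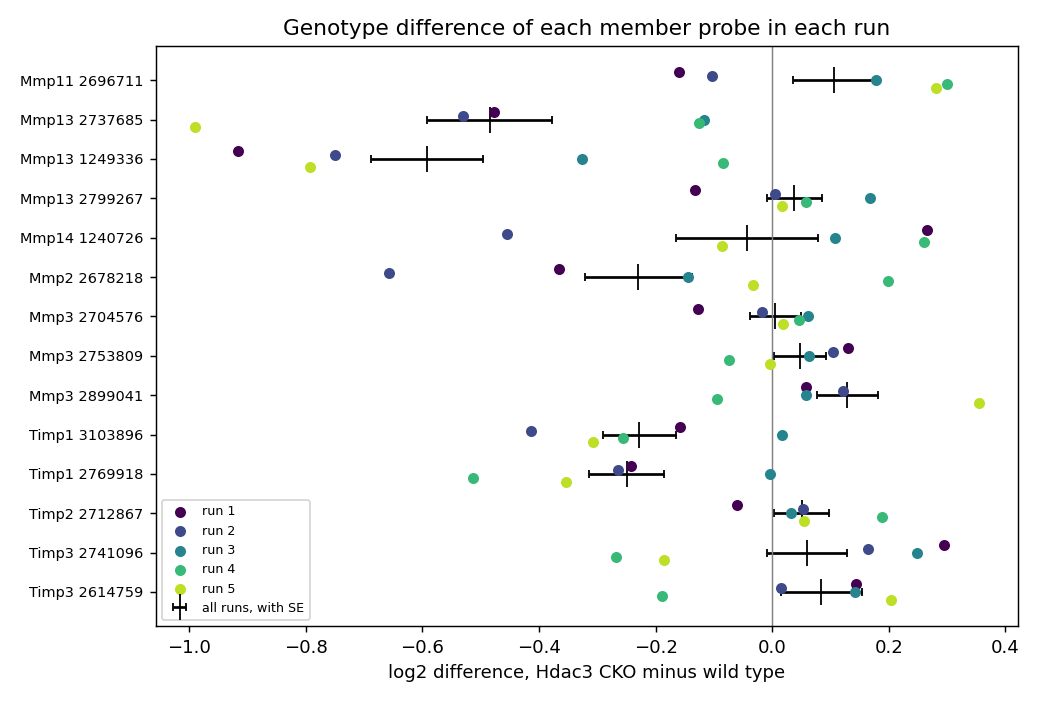
Log2 difference, Hdac3 CKO minus wild type (x axis), of each of the 14 probes (y axis, gene and probe number). Coloured points are the 5 runs, and black bars are the difference over all runs with its SE from the fit with the runs as a block. The first and second Mmp13 probes lie below 0 in all 5 runs, with block differences of -0.48 and -0.59.

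Over the 14 probes the median block difference was 0.022, 6 probes being lower and 8 higher in Hdac3 CKO arrays, against a median of -0.0023 and 51.3% lower over all 25697 probes. In the limma fit of genotype without a block, 0 of the 14 and 0% of all probes had an adjusted p under 0.05 (Benjamini-Hochberg over all probes), with 1218 of all probes at an unadjusted p under 0.05, 1209 in the rank sum test. With the runs as a block 1 of the 14, the second Mmp13 probe, did so, against 0.218% of all probes. As the choice of the genes used this contrast, nothing is read from these counts.

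For most of the 14 probes more variation lay between runs than between genotypes. As there are more runs than genotypes, a larger share between runs is partly built in. The difference between runs was open to test because each run holds both genotypes equally. In the limma F-test of the runs, adjusted over all probes, 10 of the 14 probes passed, against 20.1% of all probes and 37.7% of probes above the median probe, to which 11 of the 14 belong. The 4 that did not pass were the dim Mmp13 probe (adjusted p = 0.0557) and the 3 Mmp3 probes (0.619, 0.880 and 0.757). Every gene of the group except Mmp3 thus changed between runs, though not in the same order of runs.

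Mmp13 had the widest range of run means. Its brightest probe averaged 13.98 in run 2, 13.51 in run 1, 12.44 in run 4, 12.16 in run 3 and 11.22 in run 5, a 6.75-fold range between the highest and lowest run (F = 96.8, adjusted p = 3.91e-08). Neighbours in that order were compared by limma contrasts chosen after the data were seen. Runs 1 and 2 did not differ beyond their spread (adjusted p = 0.268), nor did runs 3 and 4 (0.464), while run 4 was below run 1 (adjusted p = 0.0112) and run 5 below run 3 (0.000481). The second probe averaged 9.67, 9.39, 7.94, 8.11 and 7.59 in the same sequence of runs, a 4.21-fold range (adjusted p = 1.24e-07). Of the 10 pairs of runs, 8 differed for the first probe and 7 for the second.

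Timp3 had the next widest range, with another order. Its brighter probe averaged 11.62 in run 5, where Mmp13 was lowest, then 11.48 in run 2, 11.25 in run 3, 10.72 in run 1 and 10.47 in run 4, a 2.23-fold range (adjusted p = 1.08e-05). Run 5 and run 2 did not pass as a pair (adjusted p = 0.412), nor did run 1 and run 4 (0.427), while 7 of 10 pairs did. The dimmer probe also passed (adjusted p = 7.13e-06).

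Mmp2 was highest in run 2, at a mean of 12.15, and lowest in run 3, at 11.10, a 2.07-fold range (adjusted p = 0.000335), and runs 1, 4 and 5 lay between at 11.65, 11.57 and 11.48. Of the 10 pairs of runs, 3 differed for Mmp2: run 2 was above runs 3, 4 and 5. Mmp14 was likewise highest in run 2, at 14.07, and its lowest means were 13.27 in run 3 and 13.24 in run 5 (1.77-fold, adjusted p = 0.00938). Timp2 had its highest mean in run 2 too, 12.43, and its lowest in run 3, 11.84 (1.51-fold, adjusted p = 0.000161). Without run 2 the test no longer passed for Mmp14 (adjusted p = 0.174) or Timp2 (0.0703) and still passed for Mmp2 (0.0194). After subtraction of each array's background estimate Mmp14 did not pass either (adjusted p = 0.0734).

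Timp1 was ordered differently, with means of 14.19 in run 3, 14.10 in run 1, 13.81 in run 2, 13.52 in run 5 and 13.44 in run 4 (1.68-fold, adjusted p = 0.000119). Runs 3 and 1 did not differ beyond their spread (adjusted p = 0.894), nor did runs 5 and 4 (0.790), while run 2 was below run 3 (0.00822) and above run 5 (0.0455). Mmp11 was highest in run 5, at 7.43, and lowest in run 4, at 6.87 (1.47-fold, adjusted p = 0.00394). The levels of cell type markers moved between runs as well: the osteoblast markers' mean log2 level was 9.51, 10.30, 8.84, 9.13 and 9.08 in runs 1 to 5, and that of the macrophage markers 10.03, 10.12, 10.28, 10.74 and 10.65. Their part in the differences between runs was not tested.

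**Figure D4:**
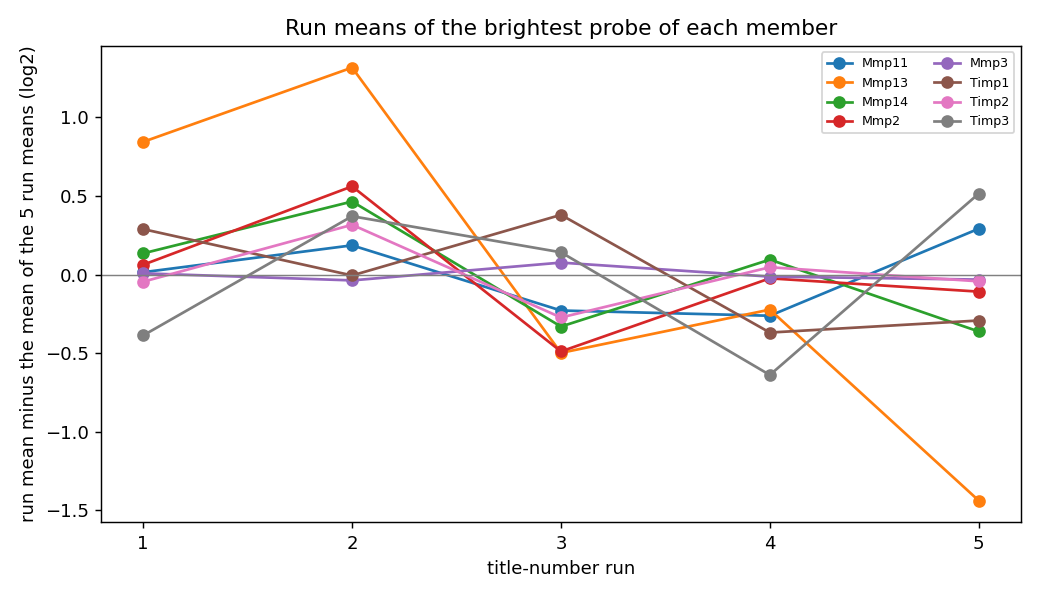
Mean log2 intensity of the brightest probe of each of the 8 genes in runs 1 to 5 (x axis), given as the distance from the mean of that probe's 5 run means (y axis, log2). Each line is a gene and each point the mean over both genotypes of a run. Mmp13 spans 2.76 log2 and Mmp3 0.11.

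The share of each probe's variation was split into parts from the run, the genotype, the genotype by run and the arrays within them. For the brightest Mmp13 probe 91.8% of the sum of squares lay between runs, 4.88% between genotypes, 2.38% in the genotype difference by run and 0.98% within. For the second it was 85.8%, 10.4%, 2.35% and 1.41%. Both Timp1 probes had 77.9% and 74.5% between runs and 11.9% and 14.5% between genotypes, and the brighter Timp3 probe had 91.5% between runs and 0.52% between genotypes. The median over all 25697 probes was 37.9% between runs and 3.63% between genotypes, and over probes above the median 50.4% and 4.05%. The shares are not adjusted for there being more runs than genotypes, so those between runs are to be read against these medians.

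**Figure D5:**
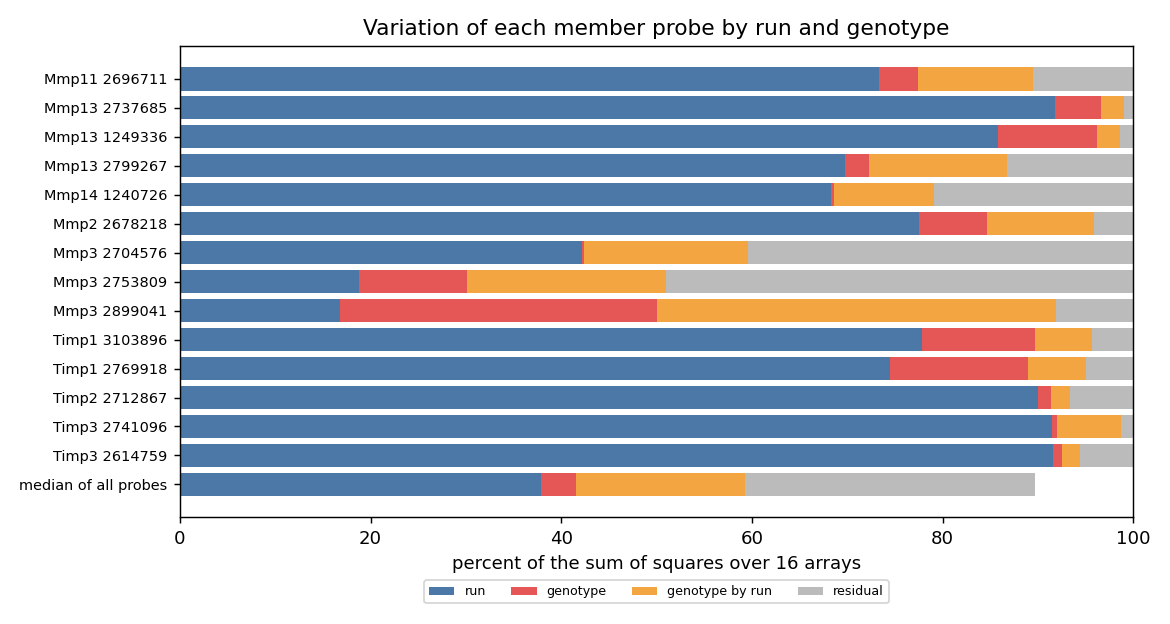
Percent of the sum of squares over 16 arrays (x axis) that lies between runs, between genotypes, in the genotype difference by run and in the residual, for each of the 14 probes (y axis, gene and probe number). The last bar gives the median of each share over all 25697 probes, taken separately, so that it stops short of the full width. Runs hold 91.8% for the brightest Mmp13 probe.

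Whether the genotype difference itself differed between runs was tested with the limma interaction F-test. None of the 14 probes passed, against 0.494% of all probes. The smallest adjusted p of the group was 0.369, for the brightest probes of Mmp13 and Timp3. The differences of Mmp13, from -0.12 in run 3 to -0.99 in run 5, were thus not shown to differ between runs. Nor were those of Timp3, which had both signs. The absence of a call does not show that they were equal.

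Over the 16 arrays Mmp13 was positively correlated with Mmp14 and Mmp2. For the brightest probes, Pearson's r with Mmp14 was 0.81 (Spearman's rho 0.85; permutation p = 0.000180, adjusted over the 7 relations 0.00126) and with Mmp2 0.70 (rho 0.73; permutation p = 0.00228, adjusted 0.00798). The permutations moved values freely across the 16 arrays, although arrays of the same run were alike in Mmp13. These p-values therefore take no account of the runs and are too small as a measure of a relation beyond them. The 6 arrays of runs 1 and 2 all lay above the 10 arrays of the other runs in Mmp13, and within these sets r was 0.73 and 0.51 for Mmp14, and 0.97 and -0.17 for Mmp2. Without WT13 and WT14, the arrays farthest from the median of Mmp13, r was 0.71 for Mmp14 and 0.49 for Mmp2, and without run 2 it was 0.62 (adjusted p = 0.109) and 0.27 (0.494). The relation with Mmp2 therefore rests on runs 1 and 2.

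Centred within runs, r was 0.47 for Mmp14, 0.57 for Mmp2 and 0.66 for Timp1. These values hold the genotype contrast by which the genes were chosen, so they carry no test. Centred on run and genotype together, r was 0.62 for Mmp14, 0.25 for Mmp2 and 0.23 for Timp1, also with no test. Over all arrays r was 0.57 for Timp2 (adjusted p = 0.0541), 0.36 for Timp1 (0.300), -0.20 for Timp3 (0.644), -0.073 for Mmp11 and -0.094 for Mmp3 (0.786 each). Differences between runs and the genotype contrast both enter every r over all arrays, and its p-value takes no account of the runs.

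The marker levels were set beside Mmp13 in the same way, as 2 relations chosen after the data were seen. The osteoblast level correlated with Mmp13 at r = 0.81 over 16 arrays (rho 0.72; permutation p = 0.000110, adjusted 0.000220), at 0.71 without WT13 and WT14 and at 0.42 within runs. The macrophage level correlated at r = -0.75 (rho -0.64; permutation p = 0.000980), at -0.60 without the same arrays and at -0.73 within runs. The values within runs again hold the genotype contrast and carry no test. The permutations over all arrays again took no account of the runs. Centred on run and genotype r was -0.099 and -0.35. In the 10 arrays of runs 3 to 5 the osteoblast level correlated at -0.28 and the macrophage level at -0.47.

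Genes with the pattern most like that of Mmp13 were sought among 8708 genes above the median probe, by r of log2 values centred on run and genotype over 16 arrays. The highest were Ing3 (0.93), Bhlhb9, Gja1, Ddr2 and Srfbp1 (0.91 each). Gja1 encodes the gap junction protein connexin 43 and Ddr2 a receptor tyrosine kinase that binds fibrillar collagen. Without centring, r with Mmp13 was 0.96 for Gja1, 0.82 for Bhlhb9, 0.63 for Srfbp1, 0.51 for Ddr2 and 0.36 for Ing3. The lowest were Per1, a circadian clock gene (-0.93), Pi4kb and Senp3 (-0.91 each). Among the members Mmp14 ranked 534 of 8708, Timp3 1444, Mmp2 2723, Timp1 2871, Mmp11 5691 and Timp2 6346. With so few arrays left after centring such values describe the arrays and carry no test.

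Mmp13 lies at the end of a cluster of metalloproteinase genes on chromosome 9, in the order Mmp13, Mmp12, Mmp1b, Mmp3, Mmp1a, Mmp10, Mmp8, Mmp27, Mmp20 and Mmp7 (RefSeq, GRCm38.p6). Of the genes with a probe, Mmp13, Mmp12 and Mmp1a were above the median probe. Mmp12, the macrophage elastase, ranged from 8.15 to 11.35, while Mmp1b, Mmp3, Mmp20 and Mmp7 stayed between 5.94 and 6.53 over all their probes shown here.

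Genes outside the group, from lists of its pathway, were tested for genotype. Those named have the smallest p of their list in the block fit, which favours the same direction in every run. The share of all probes with the same direction in every run was not taken, so the counts of runs below only describe these genes. Of the other metalloproteinases, 15 of 18 listed genes were measured and 0 passed in either fit, 12 being lower and 3 higher in Hdac3 CKO arrays with the runs as a block (median -0.043). Mmp9, gelatinase B of osteoclasts and neutrophils, differed by -0.11 (SE 0.061, limma adjusted p = 0.524) and was lower in 5 of 5 runs. Mmp12 differed by -0.41 (SE 0.20, adjusted p = 0.472), and its difference itself varied between runs (interaction adjusted p = 0.00285): 0.35, -0.66, 0.56, -0.54 and -1.43 in runs 1 to 5. Mmp16, another membrane-bound enzyme, differed by -0.17 (adjusted p = 0.481).

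Of the ADAM and ADAMTS proteinases, which shed membrane proteins and cut proteoglycans, 21 of 26 were measured and 0 passed, 8 lower and 13 higher (median 0.0072). Adam9 and Adam15 were the nearest to the threshold, at 0.25 (SE 0.073, adjusted p = 0.179) and 0.20 (SE 0.062, 0.220), and Adam9 was higher in 5 of 5 runs. Adamts17 differed by -0.17 (adjusted p = 0.230). The genotype difference of 2 of the 21, Adamts1 and Adamts4, named after their values were seen, differed by run (interaction adjusted p = 0.0432 and 0.0128), against 0.494% of all probes.

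Of the activators and inhibitors, 18 of 22 were measured and 0 passed, 11 lower and 7 higher (median -0.025). Plaur, the receptor of urokinase, which starts the plasmin cascade, differed by -0.18 (SE 0.055, adjusted p = 0.196) and was lower in 5 of 5 runs. Ctsk, the collagen-cutting cathepsin of osteoclasts, differed by -0.20 (adjusted p = 0.317) and Serpinb2, an inhibitor of plasminogen activators, by -0.29 (0.423). Of the matrix substrates 16 of 18 were measured and 0 passed, 9 lower and 7 higher (median -0.021), with Lum at -0.23 (adjusted p = 0.226), Tnc at -0.29 (0.337) and Hspg2 at 0.10 (0.718).

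Of the AP-1 factors and signals known to act on Mmp13, 23 of 25 were measured, 12 lower and 11 higher (median -0.00031). In the block fit 1 was called, against 0.218% of all probes: Il11, a cytokine of the interleukin 6 family. Without a block 0 passed. Il11 read 7.55 on WT5 against 7.32 on KO7, 7.02 and 7.07 in wild type against 6.60 and 6.55 in Hdac3 CKO arrays of run 2, and 9.09 and 9.03 against 8.34 and 8.001 in run 3. It read 7.66 against 6.65 in run 4 and 7.62 and 7.29 against 7.43 and 7.11 in run 5. The wild type arrays were above the others in runs 1 to 4 and the genotypes overlapped in run 5. Runs 1 and 4 hold only 1 array of each genotype. The difference was -0.54 (SE 0.10, 0.687-fold, limma adjusted p = 0.0383). The adjusted p was above 0.05 on leaving out any of 12 of the 16 arrays in turn (highest 0.109), and 0.492 without run 2. Leaving out WT30 or KO32 gave the same fit, as did leaving out WT5 or KO7. Il11 was known to pass when the list was drawn up, so its call and the count of 1 are a description and no test. Fosl1, which encodes the AP-1 factor Fra-1, differed by -0.17 (SE 0.045, adjusted p = 0.142), with run differences of -0.16, -0.21, -0.13, -0.15 and -0.18, and Atf4 by -0.25 (adjusted p = 0.338); both were lower in 5 of 5 runs.

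Between runs, members of the same lists passed the F-test, which 20.1% of all probes and 37.7% of probes above the median passed: 7 of the 15 other metalloproteinases, 8 of the 21 ADAM and ADAMTS proteinases, 9 of the 18 activators and inhibitors, 11 of the 23 AP-1 factors and signals and 8 of the 16 matrix substrates.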

How the data were processed

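Total RNA of the 16 cultures, isolated with TRIzol, was biotin labelled and hybridized to an Illumina mouse BeadChip, per the labels. The deposited values are probe intensities on a linear scale that the authors had made and quantile normalized across arrays, as equal quantiles of all arrays show; the sources used here give no software, background treatment or detection filter. Intensities were floored at 16 and transformed to log2 without further normalization, so differences of dim probes in the deposited values are compressed. Gene symbols, from a platform annotation of 2016, were brought up to date by Entrez identifier (23962 of 25697 probes matched; 1719 are unnamed here). limma 3.58.1 (R 4.3.3; lmFit, eBayes) was fitted to all probes, without a covariate and with the runs (a new run after a gap over 4 in the array numbers) as a fixed block, with Benjamini-Hochberg adjusted p under 0.05 as the threshold, and tested on simulated data. Correlations used 100000 permutations over all 16 arrays, without regard to runs. The genes and lists were chosen with earlier results of these data known. Genes named are all members, Hdac3, up to 3 per list by smallest p in the block fit besides any that passed, and the 5 most and 3 least like Mmp13. Alternatives are given at the end.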

Additional observations from a re-analysis of the deposited data

Results flagged for a closer look

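Of 58 sets of 8 arrays examined, a gene probe in a genotype each, 3 held an array that lay apart from the others by Dixon's criterion, where chance gives about 5%. Mmp3 (ILMN_2704576) read 6.53 on KO24, its nearest Hdac3 CKO array reading 6.36. Mmp12 (ILMN_1250421) read 8.69 on WT30, its nearest wild type array reading 10.39. Adamts17 (ILMN_2881801) read 6.69 on WT5, its nearest wild type array reading 6.38.

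For 2 of the 15 list genes named by rule, the genotype difference itself differed between runs in the limma interaction test, which 0.494% of all probes passed. For Mmp12 (interaction adjusted p = 0.00285) the differences were 0.35, -0.66, 0.56, -0.54 and -1.43 in runs 1 to 5, so that the direction turned between runs. For Serpinb2 (interaction adjusted p = 0.0429) they were -0.14, -0.32, 0.23, -1.40 and -0.31.

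The other genes of the 5 pathway lists that passed this test, named after their values were seen, were Il6st, the signal-transducing receptor subunit of the interleukin 6 family (interaction adjusted p = 0.00351), Adamts4 (0.0128), Col2a1 (0.0176) and Adamts1 (0.0432). Il6st differed by -0.32, -0.066, -0.73, 1.47 and 0.52 in runs 1 to 5. Adamts4 differed by 0.21, -1.18, 0.13, 0.42 and -0.0088. Col2a1 differed by -0.81, 0.60, -0.46, 0.78 and 0.33, and Adamts1 by -0.34, -0.88, -0.25, 0.19 and 0.29.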

How the results depend on the processing

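Over the 16 fits that each leave out 1 array, probes called ranged from 0 to 0 for genotype without a block, 12 to 149 with the runs as a block, 4118 to 5733 between runs and 42 to 213 for genotype by run. The block count of 56 was 12 without KO15, 13 without WT13, WT14, KO16 or WT21, 16 without WT42, 32 without KO24 or KO47, 34 without WT22, and 149 without WT30 or KO32. The second Mmp13 probe was among the calls in 12 of the 23 alternatives to the block fit (10 of these 16) and the brightest in 3. With the block, 5 probes were called after background subtraction, 5 without run 2 and 5 with the osteoblast level as a covariate. The count was 0 in the rank sum test within runs (2249 at an unadjusted p under 0.05), 0 in limma over 5 pairs of run means (2563) and 0 in limma with the macrophage level as a covariate (1697). With the runs as a random block 0 were called in limma (2043 unadjusted). Between runs, 3283 were called after background subtraction and 3307 without run 2. For genotype by run the counts were 76 among probes above the median, 560 after background subtraction and 10 without run 2. The correlation of Mmp13 without run 2 was 0.62 with Mmp14 and 0.27 with Mmp2, and neither passed. The cause of these changes was not tested. The difference of Mmp16 reversed to 0.075 with the macrophage level as a covariate. Of the genotype differences of the members, which have no test, 594 alternatives moved by less than the SD between arrays and 2 by more, and 30 turned in sign: 12 of Mmp14 (0.31 with the macrophage level as a covariate), 1 of Mmp2 (0.10 with that covariate), 10 of Mmp3, 1 of Timp2 and 6 of Timp3. Of the tested values of single probes, 847 kept their direction and side of the threshold, 20 no longer passed and 2 newly passed. The 20 were 17 of Il11, 2 of Mmp14 and 1 of Timp2, the latter both between runs. Intensities near the background limit Mmp3 and the third Mmp13 probe.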
